A study of Arabidopsis thaliana with 12 samples.

Results

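The comparison described here sets the flowers of lug-3 mutants of Arabidopsis thaliana against their rosette leaves, with 3 arrays of each, 6 of the 12 arrays in the series. The other 6 arrays hold wild-type flowers and wild-type leaves, 3 each, and give the organ difference of the parent strain beside which the mutant's was set. All plants were Landsberg erecta (Ler-0). The mutants carried the lug-3 allele in that background, and no further allele or agent is named in the labels. For every sample the labels give stratification, a cold treatment, at 4 °C for 4 days and a temperature of 20 °C. Flowers were labelled growth stage 6.90 and mature rosette leaves growth stage 3.90, so organ and growth stage cannot be told apart. Each sample is described as a pool of 20 plants, and the labels do not say whether pools of a group were grown separately. The p-values therefore reflect only how these samples scatter, and that scatter may be technical. The labels describe mutant rosettes with longer petioles, shorter plants and more shoot branches, and how far the harvested organs differed in form was not measured here.

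The lug-3 mutation lies in LEUNIG (LUG), which encodes a corepressor of transcription that acts in complexes with SEUSS (SEU) and with DNA-binding partners. It is known for keeping the stamen and carpel identity gene AGAMOUS out of the outer whorls of the flower, so that mutant flowers form altered outer organs, and it also acts in leaf shape and in the margin tissues of the carpel. Leaves are dominated by photosynthetic mesophyll, while flowers hold petals, pollen, the tapetum that feeds it, ovules, nectaries and dividing tissue. In whole organs, fewer cells of a type and less RNA per cell cannot be told apart.

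One-colour ATH1 arrays measured the level of each transcript as a probe set signal, an intensity on a linear scale that the authors had set to a common mean. Differences are given on the scale log2(signal + 8), where 1 is close to a 2-fold difference for strong signals and understates that of weak ones. Tests were run on the 17877 of 22746 probe sets whose signal exceeded 16.4 on 3 or more arrays, and a probe set was called at an adjusted p below 0.05. Of the tested probe sets, 10013 carry 1 gene name here. The median signal was 48.8 to 52.6 on the flower arrays and 38.3 to 41.0 on the leaf arrays, at the same trimmed mean. The 3' to 5' signal ratio of the GAPDH controls, a measure of RNA quality, was 1.65, 2.02 and 3.10 in lug-3 flowers, against 1.47, 1.68 and 1.58 in lug-3 leaves. It was 1.63, 1.78 and 2.07 in wild-type flowers, against 1.71, 2.83 and 3.44 in wild-type leaves. The highest GAPDH ratio thus lay in the flowers of the mutant and in the leaves of the wild type. Its part in the results was tested only through the alternatives named with them. The actin controls gave ratios of 10.0, 13.8 and 20.2 in lug-3 flowers and 9.91, 7.26 and 4.91 in lug-3 leaves, without overlap. They gave 8.56, 11.1 and 13.5 in wild-type flowers and 6.10, 11.3 and 11.4 in wild-type leaves. No alternative used the actin ratio, and its part was not tested. SEU, LUG's partner, had signals of 145, 141 and 133 in lug-3 flowers and 123, 119 and 117 in lug-3 leaves, a log2 difference of 0.21 that did not pass the test (adjusted p = 0.082). The transcripts of LUG and AGAMOUS were not analysed here.

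The extraction text of the flower samples repeats the wording for rosette leaves, so the organ labels were set against marker genes. Over 6 genes listed for pollen and sperm, the summed signal was 146 to 245 in lug-3 flowers and 51.9 to 62.4 in lug-3 leaves. In wild-type flowers it was 568 to 758, and 67.7 to 91.3 in wild-type leaves. In the leaves of each genotype 5 of the 6 stayed below 16.4 on all 3 arrays, and in the flowers of each genotype none did. The filter largely sets that count, since a gene below 16.4 in all leaves was tested only if flowers exceeded it. Over 6 nuclear genes of the photosystems the sum was 6612 to 7796 in lug-3 flowers and 15661 to 17605 in lug-3 leaves. In wild type it was 5264 to 6819 in flowers and 13949 to 15613 in leaves. In the photosystem sums the arrays labelled flowers and leaves separated in the direction of their labels.

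In lug-3, 9139 of the 17877 tested probe sets were called between flowers and leaves, 51.1% of all tested. Of these, 5672 (31.7% of all tested) were higher in flowers and 3467 (19.4%) were lower, and 3705 of them differed by more than 1 on the log2 scale. The excess of flower-high calls depends on scaling: the median difference over all tested probe sets was 0.14. After each array was centred on its median it was -0.09, with 3674 higher and 5184 lower calls, and after quantile normalization it was -0.03, with 4447 higher and 4649 lower. The 3 lug-3 flower arrays lay wholly above or wholly below the 3 lug-3 leaf arrays for 10936 probe sets, 61.2% of those tested.

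The wild type showed 10582 calls between its organs, 59.2% of those tested, 5897 of them higher in flowers (33.0%) and 4685 lower (26.2%). The mutant kept 6621 of these in the same direction, 62.6% of the wild-type calls and 37.0% of all tested probe sets. It kept 3961 of the flower-high calls, or 67.2%, and 2660 of the leaf-high calls, or 56.8%. A further 3681 were not called in lug-3 and 280 were called in the opposite direction. Missing the call is not the same as a difference between genotypes, so the organ difference of lug-3 minus that of wild type was tested itself. It was called for 4110 probe sets, 23.0% of those tested, 2063 more positive in lug-3 (11.5%) and 2047 more negative (11.5%). Of the 3681 not called in lug-3, that test called 1409, and for the other 2272 a change of the organ difference was not shown. In the other direction, 2238 probe sets were called in lug-3 alone, 762 of them with a called difference between the genotypes. The 2 organ contrasts share no array, but each probe set's spread was estimated once for both.

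Across the tested probe sets the organ differences of lug-3 and wild type had a Pearson correlation of 0.826 and a Spearman correlation of 0.749. Probe sets are not independent replicates, so these values describe the arrays and carry no p.

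**Figure D1:**
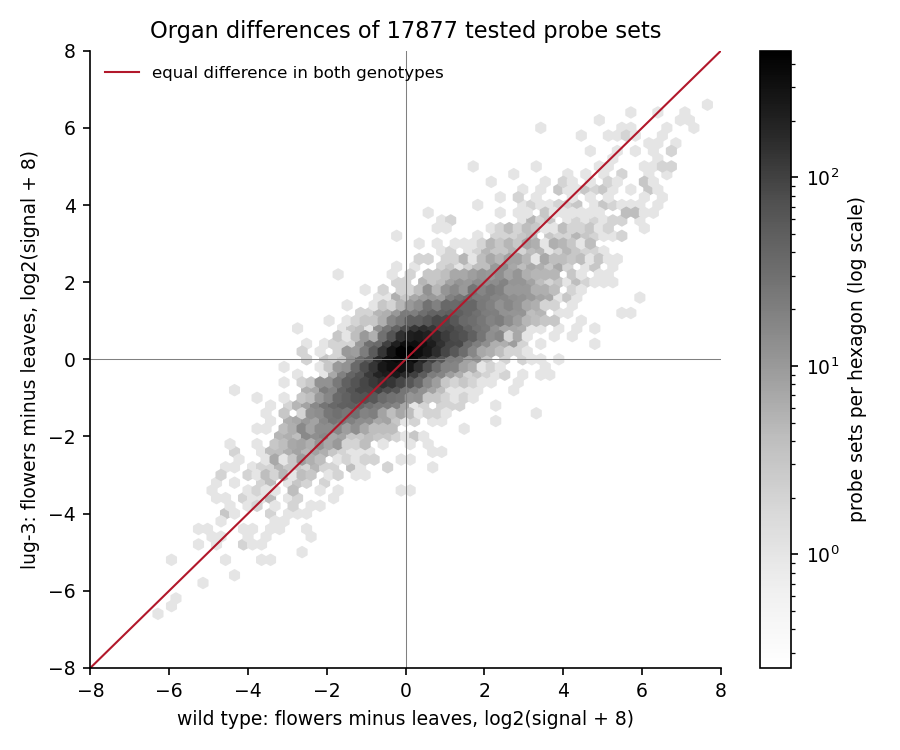
The flowers minus leaves difference of each tested probe set in lug-3 (vertical axis) is plotted against that in wild type (horizontal axis), both as log2(signal + 8), with the number of probe sets per hexagon in grey. Most of the 17877 probe sets follow the rising diagonal, and the cloud is flatter than the red line of equal difference, with an SD of 1.00 in lug-3 and 1.25 in wild type.

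The 12 strongest rises of the mutant's flowers among named probe sets were also rises in the wild type, and for 8 of them no gap between the genotypes was called. In 10 of the 12, all 3 lug-3 leaf arrays lay below 16.4, so the fitted size depends on the added 8, and the fold against 16.4 is given as a bound. The largest fitted difference was that of AT2G33850 (AT2G33850), with signals of 1078, 1049 and 1077 in lug-3 flowers and 3.35, 3.46 and 7.11 in lug-3 leaves. The arrays of the 2 organs were far apart, and the log2 difference was 6.42 ± 0.13 (SE, n = 3 each, adjusted p = 3.3e-11), against 5.6 in wild type (adjusted p of the gap = 0.01). Against the floor its flowers were at least 65.1-fold higher in lug-3, and the gap was lost in 2 alternatives built on the GAPDH ratio (adjusted p up to 0.057). WSD1, a wax ester synthase, had signals of 702, 777 and 876 in lug-3 flowers and 2.92, 1.99 and 1.01 in lug-3 leaves, a difference of 6.31 in lug-3 against 4.91 in wild type. The gap between the genotypes passed the test (adjusted p = 0.0083), and wild-type leaves had weak signals of 13.3, 24.6 and 7.44, so that both leaf groups lay near or below the detection range. GILT, annotated as a gamma-interferon-responsive lysosomal thiol reductase, reached 700.2, 848 and 859 in lug-3 flowers and 4.14, 4.19 and 2.31 in lug-3 leaves. Its difference was 6.13 in lug-3 against 7.09 in wild type, and was called smaller in the mutant (adjusted p = 0.0029).

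CES, a transcription factor of the basic helix-loop-helix class that acts in the carpel's transmitting tract, stood at 500.2, 462 and 586 in lug-3 flowers and 5.46, 9.05 and 2.40 in lug-3 leaves. The difference was 5.29 in lug-3 against 4.71 in wild type, and the interval of the gap between them was -0.14 to 1.29. The remaining large rises were AT5G22430, AT5G62210, AT5G44630, AT1G66850, AT5G33370, AT2G20870, AT5G45880 and ATA27, with differences of 6.04, 6.0, 5.73, 5.66, 5.63, 5.39, 5.34 and 5.34 in lug-3. In wild type the same genes gave 5.6, 5.68, 5.66, 6.4, 6.08, 5.28, 6.72 and 6.69. For AT5G44630 and AT2G20870 the intervals of the gap between genotypes were -0.35 to 0.49 and -0.3 to 0.52. Of these 8, ATA27 was the 1 with a called gap. The gap of AT5G45880 was called in 12 alternatives (adjusted p up to 0.049). That of AT1G66850 was called in 4 and that of AT5G33370 in 1 (adjusted p up to 0.032 and 0.037).

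Among the transcripts low in mutant flowers, AT5G59540 had signals of 2.12, 1.86 and 0.612 in lug-3 flowers and 426, 318 and 340.1 in lug-3 leaves. All 3 lug-3 flower arrays lay below 16.4, as they did for 5 of the 12 falls named, so that the flowers were at least 21.8-fold lower and the fitted difference of -5.27 (adjusted p = 7.2e-09) is no exact size. ECS1, with signals of 71.9, 62.1 and 71.9 in lug-3 flowers and 1850, 1669.9 and 1674 in lug-3 leaves, fell by nearly the same amount in both genotypes. Its differences were -4.51 in lug-3 and -4.7 in wild type, with an interval of -0.22 to 0.6 for the gap. The chitinase gene CHI (AT2G43570), whose enzyme class degrades fungal cell walls, had signals of 14.3, 26.8 and 28.6 in lug-3 flowers and 439, 579 and 549 in lug-3 leaves, a difference of -4.11 against -4.6 in wild type. The falls of AT5G24210, AT1G13470, AT1G35710, AT5G44570, AT3G51330 and AT3G04210 were -4.79, -4.75, -4.58, -4.27, -3.92 and -3.96 in lug-3, against -4.09, -4.05, -4.85, -3.22, -3.78 and -3.04 in wild type.

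For 3 of the 12 largest falls the mutant's difference was called larger than that of the wild type. AT5G03350 had signals of 58.4, 47.2 and 58.9 in lug-3 flowers and 1339, 2128 and 2227 in lug-3 leaves, against 51.4, 61.6 and 105 in wild-type flowers and 622, 556 and 328 in wild-type leaves. The flowers of the genotypes overlapped and the mutant's leaves were higher on every array, so the difference was -4.89 in lug-3 and -2.67 in wild type (adjusted p of the gap = 0.0032). AT3G05730 behaved in the same way, with 291, 352 and 285 in lug-3 leaves against 93.7, 98.3 and 77.8 in wild-type leaves, and differences of -4.34 in lug-3 and -2.62 in wild type. The third was AT3G04210, with an adjusted p of 0.034 for its gap, a call that 12 of 25 alternatives lost (adjusted p up to 0.33). The gaps of AT5G24210, AT5G44570, AT1G13470 and AT5G59540, not called here, were called in 6, 4, 2 and 1 alternatives.

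The leaf-high transcripts of the photosystems were among the organ differences the mutant kept. All 6 tested nuclear genes of the photosystems and their antennae were lower in the flowers of lug-3 and of wild type. Of all tested probe sets 19.4% were lower in lug-3 flowers and 26.2% in wild-type flowers. The median difference of the 6 was -1.22 in lug-3 and -1.27 in wild type. None of the 6 had a called gap between genotypes, beside 23.0% of all tested probe sets, whose median difference was 0.14 in lug-3 and 0.06 in wild type. LHCB4.2, a minor antenna protein of photosystem II, had signals of 478, 501 and 322 in lug-3 flowers and 1758, 1967 and 1805 in lug-3 leaves, a difference of -2.09 in lug-3 (adjusted p = 2.8e-06) and -2.02 in wild type, with an interval of -0.66 to 0.51 for the gap. PSBY and PSBW, small subunits of photosystem II, differed by -1.31 and -0.96 in lug-3 and by -1.28 and -1.19 in wild type. LHCB4.3 showed the smallest fall of the 6, -0.54 in lug-3 against -1.0 in wild type, and 8 alternatives lost its call in lug-3 (adjusted p up to 0.32). Its gap was called with array weights (adjusted p = 0.045).

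The 3 tested genes of carbon fixation were also lower in the flowers of each genotype, beside 19.4% of all tested in lug-3 and 26.2% in wild type. PRK, phosphoribulokinase of the Calvin cycle, had signals of 1430, 1473 and 1201 in lug-3 flowers and 3429, 3106 and 2732 in lug-3 leaves. Its difference was -1.17 in lug-3 and -1.72 in wild type. The gap was not called here but was in 9 alternatives, toward a smaller difference in lug-3 (adjusted p up to 0.047). SBPASE, sedoheptulose bisphosphatase of the same cycle, differed by -1.09 in lug-3 and -1.38 in wild type. RCA, the activase of Rubisco, differed by -0.67 in lug-3 and -1.15 in wild type, and its call in lug-3 was lost after quantile normalization (adjusted p = 0.23 there). With array weights all 3 genes had a called gap, toward a smaller difference in lug-3.

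Of 7 tested genes of chlorophyll synthesis, 5 were lower in lug-3 flowers and none was higher, beside 19.4% lower and 31.7% higher of all tested probe sets. In wild type 1 was lower (CHLM) and 1 higher (CHLI2), beside 26.2% and 33.0%. The gap between genotypes was called, and more negative in lug-3, for GSA1, PORB and HEME2, beside 11.5% of all tested. PORB, a protochlorophyllide reductase that makes the green pigment's direct precursor in light, had signals of 577, 635 and 469 in lug-3 flowers and 1135, 2105 and 1658 in lug-3 leaves, against 507, 494 and 795 in wild-type flowers and 810.2, 457 and 679.9 in wild-type leaves. The mutant's leaves stood above all other arrays, so the difference was -1.5 in lug-3 (adjusted p = 0.00062) and -0.11 in wild type (adjusted p = 0.74), with an adjusted p of 0.022 for the gap, which 6 alternatives lost (adjusted p up to 0.19). GSA1, which makes the precursor aminolevulinate, differed by -0.72 in lug-3 and 0.23 in wild type. HEME2, an enzyme of the shared heme and chlorophyll branch, differed by -0.64 and 0.2 in the same order. CHLM, a methyltransferase of the magnesium branch, was lower in the flowers of both genotypes, with differences of -1.03 in lug-3 and -0.68 in wild type.

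The leaf-high transcripts of glucosinolate synthesis, which makes the sulfur-rich defence compounds of the cabbage family, were kept. All 5 tested genes of the list were called in the same direction in both genotypes, beside 37.0% of all tested probe sets. In flowers 4 of the 5 were lower, beside 19.4% of all tested in lug-3 and 26.2% in wild type. BCAT4, the aminotransferase that starts methionine chain elongation, had signals of 78.1, 77.6 and 89.3 in lug-3 flowers and 2259, 1830.3 and 1879 in lug-3 leaves. The difference was -4.47 in lug-3 and -5.27 in wild type, a gap of 0.79 (adjusted p = 0.034) whose call 12 alternatives lost (adjusted p up to 0.24). AOP3, a side chain modifying enzyme, differed by -3.04 in lug-3 and -3.66 in wild type. GSTU20 and UGT74B1, a glutathione transferase and a glucosyltransferase of the pathway, differed by -2.53 and -1.95 in lug-3 and by -2.28 and -1.81 in wild type, and their intervals for the gap were -0.95 to 0.46 and -0.5 to 0.22. AOP1 was the 1 gene of the list higher in flowers, by 0.53 in lug-3 and 1.37 in wild type, and 10 alternatives lost its call in lug-3 (adjusted p up to 0.21).

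**Figure D2:**
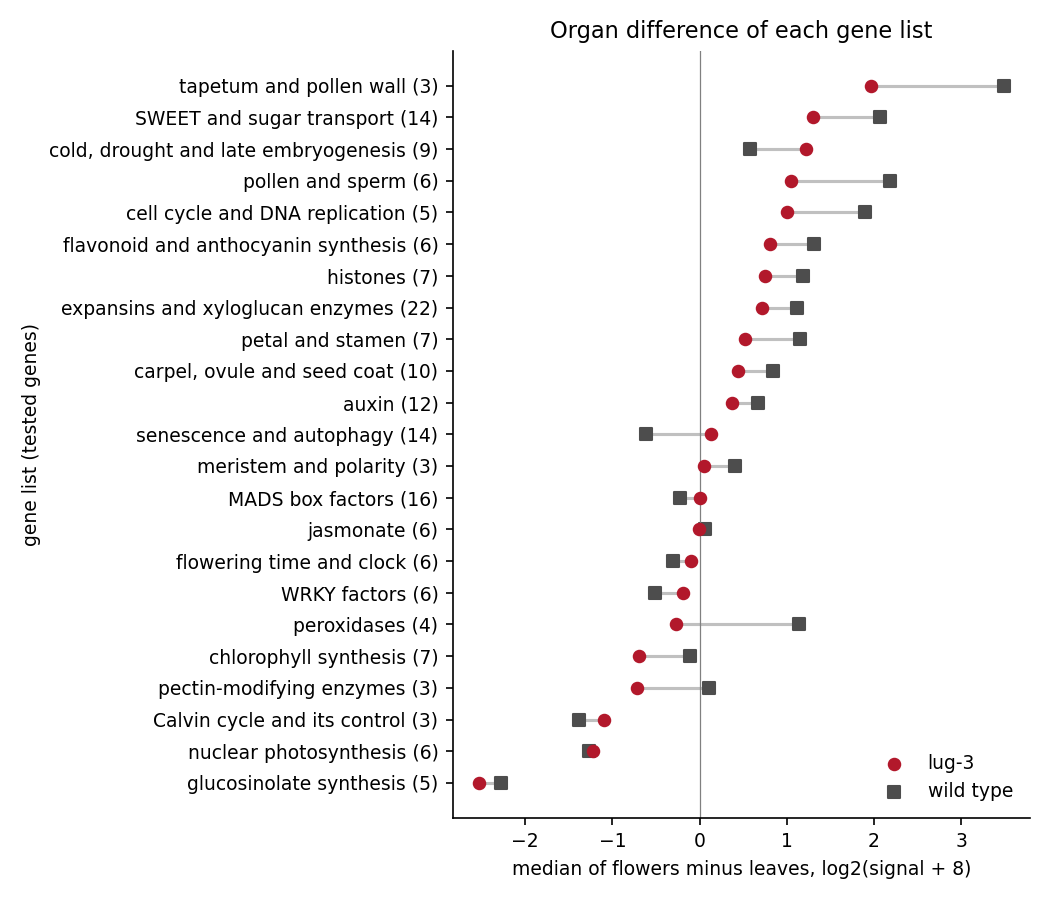
For each gene list with at least 3 tested genes, the median flowers minus leaves difference as log2(signal + 8) is shown for lug-3 (circles) and wild type (squares), with the number of tested genes in brackets. The photosynthesis list lies at -1.22 in lug-3 and -1.27 in wild type, and the tapetum and pollen lists lie at 1.97 and 1.05 in lug-3 against 3.49 and 2.18 in wild type.

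Transcripts of the male organs kept their direction in lug-3 at a smaller size. Of 6 tested genes listed for pollen and sperm, 5 were higher in the mutant's flowers than in its leaves, and all 6 were in wild type. The shares over all tested probe sets were 31.7% in lug-3 and 33.0% in wild type. A gene below 16.4 in all leaves passed the filter only through flowers, which favours a rise in this count. The median difference was 1.05 in lug-3 and 2.18 in wild type, and the gap was called, toward a smaller difference in lug-3, for 4 of the 6, beside 11.5% of all tested probe sets more negative in lug-3. PLIM2a, a pollen protein that bundles actin filaments, had signals of 41.3, 83.03 and 106 in lug-3 flowers and 3.95, 4.70 and 2.78 in lug-3 leaves, against 353, 313 and 261 in wild-type flowers and 3.22, 3.16 and 11.5 in wild-type leaves. All mutant flowers lay above all leaves and below all wild-type flowers, and the difference was 2.76 in lug-3 and 4.55 in wild type (adjusted p of the gap = 0.0097). ANX2, a receptor kinase of the pollen tube, had 10.1, 16.1 and 23.7 in lug-3 flowers and 86.03, 104 and 64.7 in wild-type flowers, with weak signals below 2 in all leaves. Its difference was 1.37 in lug-3 and 3.39 in wild type. MGH3, a histone H3 of the sperm cells, differed by 1.01 in lug-3 and 2.42 in wild type. Its gap lost the call in 6 alternatives (adjusted p up to 0.28), and its rise in lug-3 after quantile normalization (adjusted p = 0.14). AT1G18830, the sixth member, differed by 0.08 in lug-3, which did not pass the test, and by 1.39 in wild type, with a gap that 13 alternatives lost. How many pollen grains or anthers the flower pools held was not measured, and its part in these values was not tested.

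The 3 tested genes listed for the tapetum and pollen wall rose in the flowers of both genotypes, beside 31.7% of all tested in lug-3 and 33.0% in wild type. Their summed signal was 470 to 624 in lug-3 flowers and 36.6 to 53.4 in lug-3 leaves. In wild type the sums were 1336 to 1849 in flowers and 26.4 to 52.7 in leaves. ATA27, a beta-glucosidase named for its anther expression, had signals of 294, 374 and 436 in lug-3 flowers and 0.971, 1.62 and 0.966 in lug-3 leaves, against 895, 928 and 1347 in wild-type flowers and 3.80, 1.15 and 1.73 in wild-type leaves. It was thus among the largest organ differences of the mutant, 5.34, and was still called smaller than the 6.69 of wild type (adjusted p = 0.0041). SWEET8, a sugar transporter needed for the pollen wall, differed by 1.86 in lug-3 and 3.49 in wild type (adjusted p of the gap = 0.005). EMS1, the receptor kinase that specifies tapetal cells, differed by 1.97 in lug-3 and 2.87 in wild type, a gap that did not pass the test (adjusted p = 0.1).

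Of 10 tested genes listed for carpel, ovule and seed coat, 5 were higher and 1 lower in the flowers of lug-3, beside 31.7% and 19.4% of all tested probe sets. Of the 7 called in wild type, 6 were kept, beside 62.6% of all wild-type calls. Over the alternatives the higher genes numbered 4 to 7 and the lower ones 0 to 2. ALC, a basic helix-loop-helix factor of fruit opening, had signals of 187, 235 and 189 in lug-3 flowers and 20.6, 13.7 and 7.53 in lug-3 leaves, a difference of 3.31 against 2.93 in wild type. SPT, a related factor of the carpel margins, had 88.4, 83.5 and 77.4 in lug-3 flowers and 27.5, 22.8 and 20.4 in lug-3 leaves, against 60.6, 51.5 and 48.96 in wild-type flowers and 27.7, 23.9 and 28.9 in wild-type leaves. Mutant flowers were the highest group on every array, and the difference of 1.53 in lug-3 was called larger than the 0.82 of wild type (adjusted p = 0.014). TSO1, a regulator of cell division in floral tissue, differed by 1.65 in lug-3 and 1.89 in wild type. INO, a polarity factor of the ovule's outer integument, differed by 0.5 in lug-3, a call that 6 alternatives lost (adjusted p up to 0.30), and 1.0 in wild type, and NGA1, a style factor, by 0.99 and 0.85 in the same order.

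The exception in this list was BAN, the anthocyanidin reductase that makes tannin precursors in the seed coat. It had signals of 3.79, 7.92 and 2.68 in lug-3 flowers and 2.44, 0.989 and 1.68 in lug-3 leaves, against 357, 295 and 233 in wild-type flowers and 1.60, 2.84 and 1.91 in wild-type leaves. Every array of the mutant, in both organs, lay below 16.4, and the 3 arrays of wild-type flowers lay far above. BAN passed the filter only through those 3 arrays. The organ difference was 0.38 in lug-3 (adjusted p = 0.09) and 4.88 in wild type, and the gap of -4.5 was among the largest (adjusted p = 9.5e-06). With array weights the small difference in lug-3 was called (adjusted p = 0.022).

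The petal and stamen list had 7 tested genes, of which 2 were higher and 1 lower in lug-3 flowers, against 4 higher and none lower in wild-type flowers. Of all tested probe sets 31.7% were higher and 19.4% lower in lug-3 flowers. The 1 that was lower, AGL65, lost its call in 8 alternatives (adjusted p up to 0.11), and JAG, not called here, was higher in 10. BPEp, a factor that limits petal cell size, had signals of 178, 110.4 and 139 in lug-3 flowers and 17.6, 18.3 and 3.58 in lug-3 leaves, a difference of 2.9 against 4.14 in wild type, with an adjusted p of 0.05 for the gap that lay just outside the threshold and was inside it in 10 alternatives. PTL, a trihelix factor of the space between sepals, differed by 1.61 in lug-3 and 1.32 in wild type. AGL104, a MADS box factor of pollen maturation, differed by 0.1 in lug-3 and 1.66 in wild type (adjusted p of the gap = 0.0018). Of the 16 tested AGAMOUS-like genes as a whole, 2 were higher and 3 lower in lug-3 flowers, beside 31.7% and 19.4% of all tested probe sets, against 4 and 3 in wild type, beside 33.0% and 26.2%. After quantile normalization 10 were lower in wild-type flowers. AGL42, 1 of the 2 that were higher, had 146, 146 and 149 in lug-3 flowers and 52.5, 54.7 and 43.9 in lug-3 leaves, and its difference of 1.41 was called larger than the 0.55 of wild type (adjusted p = 0.038), a gap that 13 alternatives lost (adjusted p up to 0.087).

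In the list for cell cycle and DNA replication 4 of 5 tested genes were higher in lug-3 flowers and 5 of 5 in wild-type flowers, beside 31.7% and 33.0% of all tested probe sets, with medians of 1.00 in lug-3 and 1.90 in wild type. AUR2, an Aurora kinase of mitosis, had signals of 71.3, 48.6 and 58.5 in lug-3 flowers and 16.1, 22.6 and 24.9 in lug-3 leaves, against 90.9, 99.04 and 94.4 in wild-type flowers and 11.7, 9.05 and 2.92 in wild-type leaves. The mutant's flowers were lower and its leaves higher than those of the wild type, without overlap, and the difference was 1.21 in lug-3 and 2.73 in wild type (adjusted p of the gap = 0.0043). AUR1, a related kinase, differed by 1.27 in lug-3 and 2.01 in wild type, and PRL, a subunit of the replication licensing complex, by 0.97 and 1.9 in the same order. Both gaps were called (adjusted p = 0.019 and 0.0082), and were lost in 2 alternatives for AUR1 (adjusted p up to 0.067) and in 1 for PRL (adjusted p = 0.051). The gap was called, more negative in lug-3, for 3 of the 5, beside 11.5% of all tested. AUR3, 1 of the 4 higher in lug-3 flowers, lost that call in 2 alternatives (adjusted p up to 0.070).

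Of 7 tested histone genes, 5 were higher and 1 lower in lug-3 flowers, beside 31.7% and 19.4% of all tested probe sets. HTB1, a histone H2B, kept its difference, with signals of 261, 307 and 347 in lug-3 flowers and 60.1, 78.5 and 71.2 in lug-3 leaves, a difference of 2.0 against 2.45 in wild type. HTB2 and HTB4, further H2B genes, differed by 1.21 and 0.45 in lug-3 and by 2.07 and 1.26 in wild type, and both gaps were called. The small rise of HTB4 in lug-3 lost its call in 2 alternatives (adjusted p up to 0.18). HTB11, another H2B, went the other way: its signals were 41.3, 85.2 and 12.2 in lug-3 flowers and 105, 156 and 158 in lug-3 leaves, against 240.2, 283 and 235 in wild-type flowers and 123, 146 and 176 in wild-type leaves. The mutant's flowers were spread widely but lay below all its leaves, and the difference was -1.69 in lug-3 and 0.75 in wild type. Its gap passed the test (adjusted p = 0.012) but not once the GAPDH ratio entered the model (adjusted p = 0.094). The copies of H2B genes are alike in sequence, and probe sets may share their signal.

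Of 12 tested auxin genes 6 were higher and 1 lower in lug-3 flowers, beside 31.7% and 19.4% of all tested probe sets, against 7 and 1 in wild-type flowers. The number higher in lug-3 fell to 3 after median centring. A gap was called for 4, beside 23.0% of all tested. GH3.3, an enzyme that ties auxin to amino acids, had signals of 74.5, 63.4 and 69.6 in lug-3 flowers and 42.98, 49.8 and 50.3 in lug-3 leaves, against 266, 232 and 231 in wild-type flowers and 33.2, 28.8 and 46.99 in wild-type leaves. Its difference was 0.47 in lug-3 and 2.52 in wild type, with an adjusted p of 0.00017 for the gap, and 5 alternatives lost the small rise in lug-3 (adjusted p up to 0.22). GH3.17, of the same family, differed by 2.67 in lug-3 and 4.44 in wild type (adjusted p of the gap = 0.0032). WES1, also a GH3 enzyme, differed by 2.02 in lug-3 and 1.11 in wild type. The gap of WES1 was not called here, and was called in 7 alternatives (adjusted p up to 0.0496). YUC6, an enzyme of auxin synthesis, kept its rise at 1.61 in lug-3 against 1.99 in wild type. IAA18, an auxin response repressor, was higher in lug-3 flowers by 0.63 and differed by -0.35 in wild type (adjusted p of the gap = 0.0096), and its rise in lug-3 was lost after median centring (adjusted p = 0.067).

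Of 6 tested jasmonate genes, 2 were higher and 1 lower in lug-3 flowers, beside 31.7% and 19.4% of all tested probe sets. The lower genes numbered 0 to 3 over the alternatives, and PDF1.2b, not called here, was lower in 9 (adjusted p up to 0.038). THI2.1, a thionin of the jasmonate response, had signals of 820.1, 888 and 781 in lug-3 flowers and 19.01, 34.4 and 29.7 in lug-3 leaves. Its difference of 4.58 in lug-3 was called smaller than the 5.96 of wild type (adjusted p = 0.0052). JMT, the methyltransferase that makes methyl jasmonate, differed by 2.79 in lug-3 and 4.17 in wild type, a gap that did not pass (adjusted p = 0.11). PDF1.2, a defensin, differed by -1.64 in lug-3 (adjusted p = 0.014) and -1.57 in wild type, and its call in lug-3 was lost with the GAPDH covariate (adjusted p = 0.075).

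Of 22 tested expansin and xyloglucan enzyme genes, which act in wall loosening, 11 were higher and 5 lower in lug-3 flowers, against 14 and 3 in wild-type flowers. Of all tested probe sets 31.7% were higher and 19.4% lower in lug-3 flowers. In 13 the direction called in wild type was kept, and the gap was called, more negative in lug-3, for 7, beside 11.5% of all tested. EXPB3, a beta-expansin, had signals of 513, 541 and 527 in lug-3 flowers and 43.6, 26.6 and 28.5 in lug-3 leaves, a difference of 3.73 in lug-3 and 3.65 in wild type with an interval of -0.43 to 0.6 for the gap. EXPA15, an alpha-expansin, differed by 2.95 and 2.79 in the same order. XTH16, a xyloglucan endotransglucosylase, had 94.97, 50.2 and 88.1 in lug-3 flowers and 29.9, 35.6 and 27.1 in lug-3 leaves, against 194, 172 and 171 in wild-type flowers and 20.4, 7.84 and 6.39 in wild-type leaves, and its difference of 1.1 in lug-3 was called smaller than the 3.33 of wild type (adjusted p = 0.0019). EXGT-A3, of the same enzyme class, was lower in flowers, with differences of -1.83 in lug-3 and -0.68 in wild type, a called gap in the direction of a larger fall (adjusted p = 0.0069) that 2 alternatives built on the GAPDH ratio lost (adjusted p up to 0.069).

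Of 14 tested SWEET genes, which encode sugar transporters, 9 were higher and 2 lower in lug-3 flowers, beside 31.7% and 19.4% of all tested probe sets, and 9 were kept, beside 37.0%. A further 1 was called in opposite directions. The gap was called more positive in lug-3 for 2 and more negative for 5, beside 11.5% of all tested each way. SWEET9, the sucrose exporter of nectaries, had signals of 505, 561 and 848 in lug-3 flowers and 22.6, 21.3 and 15.2 in lug-3 leaves, a difference of 4.52 against 5.04 in wild type. SWEET4 and SWEET10 differed by 4.03 and 4.13 in lug-3 and by 3.65 and 3.31 in wild type, and for SWEET10 the larger difference in lug-3 was called (adjusted p = 0.013). SWEET11, which exports sucrose for loading into leaf phloem, was lower in flowers, with differences of -1.87 in lug-3 and -2.66 in wild type (adjusted p of the gap = 0.011). SWEET17, a fructose transporter of the vacuole, had 159.6, 160.5 and 90.5 in lug-3 flowers and 103, 209 and 216 in lug-3 leaves, against 127, 122 and 130.1 in wild-type flowers and 30.5, 35.1 and 19.02 in wild-type leaves. The mutant's organs overlapped, those of the wild type did not, and the difference was -0.32 in lug-3 and 1.92 in wild type (adjusted p of the gap = 0.0031).

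Flavonoid genes were higher in the flowers of lug-3 for 3 of 6 tested and in wild type for 5 of 6, beside 31.7% and 33.0% of all tested probe sets. The number in lug-3 was 2 to 5 over the alternatives. CHIL, a chalcone isomerase-like protein, had signals of 253, 176 and 193 in lug-3 flowers and 18.9, 8.48 and 4.37 in lug-3 leaves, a difference of 3.6 against 4.42 in wild type. DFR, an enzyme of anthocyanin synthesis, had 39.98, 45.2 and 58.95 in lug-3 flowers and 38.9, 23.2 and 26.4 in lug-3 leaves, against 605, 518 and 293 in wild-type flowers and 88.6, 157 and 223 in wild-type leaves. Its differences were 0.59 in lug-3 (adjusted p = 0.15) and 1.57 in wild type (adjusted p = 0.0012), and the gap itself did not pass (adjusted p = 0.14), though it did in 4 alternatives. UGT78D3, a flavonol glycosyltransferase, differed by 2.25 in lug-3 and 0.96 in wild type, and UGT78D1, another, by 1.02 and 1.83 in the same order, with called gaps of opposite sign (adjusted p = 0.018 and 0.021) that 3 alternatives lost for UGT78D3 (adjusted p up to 0.14) and 4 for UGT78D1 (adjusted p up to 0.054).

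Organ differences were smaller over the whole array in lug-3 than in wild type. The SD of the organ difference over all tested probe sets was 1.00 in lug-3 and 1.25 in wild type, and 3743 probe sets (20.9%) differed by more than 1 in lug-3 against 5316 (29.7%) in wild type. When each flower array was set against each leaf array of its genotype, the SD was 1.01 to 1.10 in the 9 lug-3 pairs and 1.24 to 1.34 in the 9 wild-type pairs. Spearman's rho between a flower and a leaf array was 0.755 to 0.803 in lug-3 and 0.655 to 0.706 in wild type. Neither range overlapped between genotypes, although the 9 pairs reuse 6 arrays and carry no test.

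**Figure D3:**
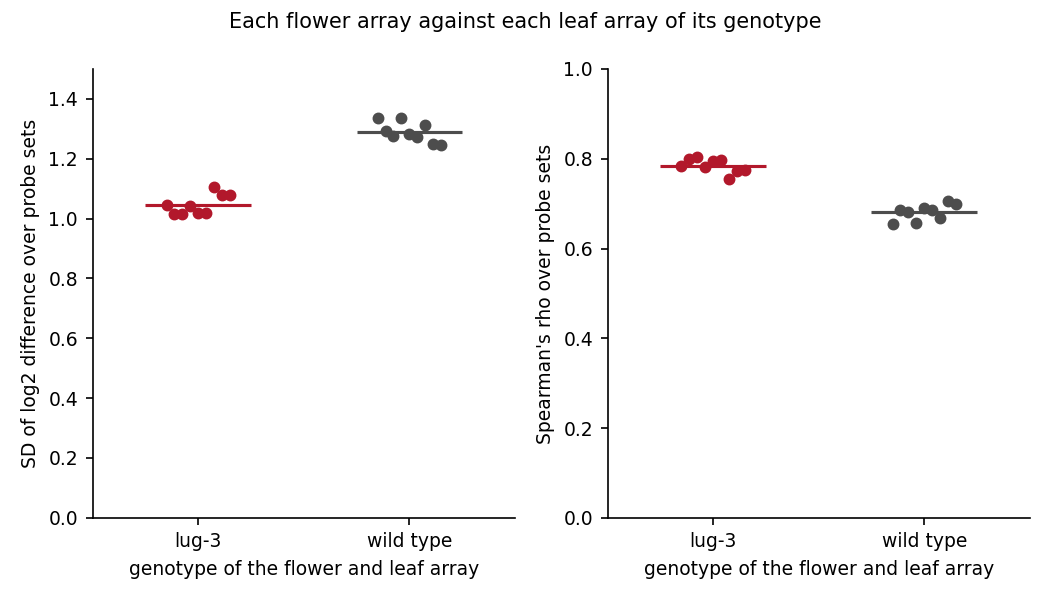
The SD over probe sets of the log2 difference (left) and Spearman's rho (right) are shown for each of the 9 flower and leaf array pairs of lug-3 and of wild type, with a bar at the mean of the 9. The lug-3 pairs lie at SDs of 1.01 to 1.10 and the wild-type pairs at 1.24 to 1.34.

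To compare sizes without choosing probe sets by either genotype, those whose mean difference over both genotypes exceeded 1 were taken, 4256 in all. Their median size was 1.39 in lug-3 and 1.83 in wild type, the median shift in size was -0.44, and 73.1% were smaller in lug-3. The test of the gap called 30.8% smaller and 5.26% larger in lug-3. Among the 2596 that were higher in flowers the medians were 1.42 in lug-3 and 1.94 in wild type, and 35.4% were called smaller. Among the 1660 that were lower in flowers they were 1.34 in lug-3 and 1.70 in wild type, and 23.7% were called smaller. In the 81 ways of taking 1 array from each group the median shift was -0.58 to -0.27 and never above 0. With the GAPDH ratio as a covariate the shift was -0.53, and without the 3 arrays of highest ratio it was -0.58. Both of these are larger shifts than the -0.44 of all arrays.

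The shift was not even across sizes. Flower-high probe sets with a mean difference over 4, 133 in number, had medians of 4.39 in lug-3 and 5.33 in wild type. The 33 leaf-high ones of that size had medians of 4.64 in lug-3 and 4.60 in wild type, and 17 of them were smaller in lug-3. Of the 6621 shared calls, 1377 were called smaller in lug-3 and 243 larger, and in 3702 the 95% interval of the gap lay within 1 on the log2 scale in either direction.

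**Figure D4:**
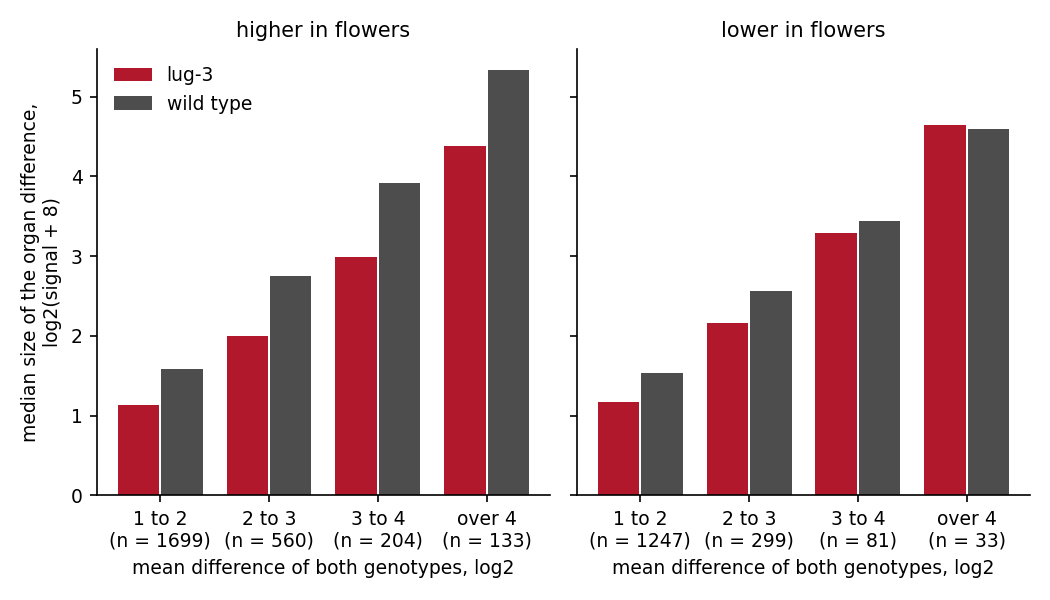
Bars give the median size of the organ difference, as log2(signal + 8), in lug-3 and in wild type for probe sets grouped by their mean difference over both genotypes, with higher in flowers on the left and lower in flowers on the right. For flower-high probe sets over 4 the bars stand at 4.39 in lug-3 and 5.33 in wild type, and for leaf-high ones at 4.64 in lug-3 and 4.60 in wild type.

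The flowers and the leaves of the mutant were then set against those of the wild type for the probe sets with a called smaller difference. Which change came first cannot be read from this. An organ was counted only if its call between genotypes went the way that makes the difference smaller. For flower-high probe sets that is lower in lug-3 flowers or higher in lug-3 leaves, and the reverse for leaf-high ones. Calls in the other direction were left out, so an organ not counted may also have differed. Of the 918 flower-high ones, 447 were counted in flowers alone, 343 in leaves alone, 68 in both and 60 in neither. The median lug-3 minus wild-type value was -0.82 in flowers and 0.48 in leaves. Of the 394 leaf-high ones, 102 were counted in flowers alone, 171 in leaves alone, 46 in both and 75 in neither. The leaf terms include wild-type leaves 2 and 3, 2 of the 3 arrays with the highest GAPDH ratio.

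The most reduced of the kept rises were small in the mutant. AT1G56100 had signals of 15.4, 26.04 and 20.8 in lug-3 flowers and 2.42, 1.59 and 11.1 in lug-3 leaves, against 705, 563 and 482 in wild-type flowers and 4.37, 2.87 and 2.71 in wild-type leaves. Only wild-type flowers were well above 30 on every array, and the difference was 1.2 in lug-3 and 5.69 in wild type (adjusted p of the gap = 3.3e-05). AT5G47350, AT4G15750, AT2G38900 and AT5G45950 differed by 1.64, 1.29, 0.73 and 2.1 in lug-3, against 5.96, 5.42, 4.8 and 5.24 in wild type. The small rise of AT2G38900 in lug-3 lost its call in 10 alternatives (adjusted p up to 0.32), whereas its gap did not.

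In the opposite direction, the most enlarged rise was that of AT1G22160, with signals of 589.6, 553 and 599 in lug-3 flowers and 51.4, 27.7 and 29.8 in lug-3 leaves, against 363, 402 and 351 in wild-type flowers and 234, 238 and 307 in wild-type leaves. The mutant's leaves were the lowest group and its flowers the highest, and the difference was 3.77 in lug-3 and 0.51 in wild type (adjusted p of the gap = 4.2e-05). AT5G50360, AT5G52390 and AT2G16890 differed by 3.59, 3.55 and 3.98 in lug-3 and by 0.81, 1.14 and 1.72 in wild type.

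Beside BAN, the largest rises of wild-type flowers that were not called in lug-3 and had a called gap were AT2G38240, AT2G30810, AT2G10940, AT4G35725 and RR22. RR22, a response regulator of the cytokinin signalling class, had signals of 1.18, 1.01 and 1.41 in lug-3 flowers and 1.82, 1.33 and 2.05 in lug-3 leaves, against 76.6, 66.7 and 52.1 in wild-type flowers and 1.26, 1.28 and 1.36 in wild-type leaves. As for BAN, the 3 wild-type flower arrays alone were above 16.4, and RR22 passed the filter only through them. The difference was -0.08 in lug-3 and 2.96 in wild type (adjusted p of the gap = 9.5e-06). AT2G38240 had 28.5, 53.3 and 75.3 in lug-3 flowers and 19.2, 346 and 355 in lug-3 leaves, against 185, 195 and 181 in wild-type flowers and 4.63, 3.11 and 38.4 in wild-type leaves, so 1 lug-3 leaf array stood apart from the other two. Its difference was -1.41 in lug-3 and 3.38 in wild type, and without lug-3 leaves 1 it was -2.65 in lug-3 (adjusted p = 0.0017). AT2G10940 had high signals of 765, 801 and 731 in lug-3 flowers and 875, 1189 and 1327 in lug-3 leaves, while wild-type leaves gave 38.98, 196 and 333. Its difference of -0.54 in lug-3 was called as a fall in 5 alternatives (adjusted p up to 0.041), opposite to the 2.89 of wild type.

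Among the leaf-high transcripts of wild type that lost their organ difference, AT4G09760 had signals of 94.5, 97.7 and 98.2 in lug-3 flowers and 130.3, 105 and 121 in lug-3 leaves, against 65.8, 80.9 and 46.05 in wild-type flowers and 598, 579 and 628 in wild-type leaves. Wild-type leaves alone were high, and the difference was -0.27 in lug-3 and -3.11 in wild type (adjusted p of the gap = 4.3e-05). After median centring the small fall in lug-3 was called (adjusted p = 0.021). AT4G18250, AT1G67920, AT1G11210, AT4G23880 and AT1G01640 differed by 0.26, 0.2, 0.29, -0.08 and 0.54 in lug-3, against -2.69, -2.69, -2.54, -2.45 and -1.75 in wild type. For AT1G01640 the rise in lug-3 was called in 4 alternatives and for AT1G11210 in 2, with adjusted p up to 0.047 and 0.048.

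The mutant also showed organ differences that were not called in wild type. PUB19, a U-box protein that marks other proteins for degradation, had signals of 288, 257 and 147 in lug-3 flowers and 56.5, 48.2 and 46.03 in lug-3 leaves, against 39.3, 34.6 and 39.1 in wild-type flowers and 81.3, 40.7 and 29.7 in wild-type leaves. The mutant's flowers were above every other array, and the difference was 1.98 in lug-3 and -0.26 in wild type (adjusted p of the gap = 0.0033). AT5G53710 differed by 2.99 in lug-3 and 0.38 in wild type, AT3G47680 by 1.75 and -0.5, AT1G05340 by 2.56 and 0.33, and AT4G33040 by 1.89 and -0.23. AT2G05540 had 340.5, 509 and 48.4 in lug-3 flowers, an uneven group, and its gap lost the call in 13 alternatives (adjusted p up to 0.20).

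Of the falls found in lug-3 alone, AT4G16980 had signals of 264, 254 and 178 in lug-3 flowers and 1865, 1719 and 1544 in lug-3 leaves, against 450.1, 379.8 and 351 in wild-type flowers and 429.8, 596 and 509 in wild-type leaves. Mutant leaves were the highest group without overlap, and the difference was -2.85 in lug-3 and -0.37 in wild type (adjusted p of the gap = 0.00014). AT1G04040 had 221, 473 and 418 in lug-3 leaves, against 54.0 to 66.3 on the arrays of the other 3 groups, and its difference was -2.49 in lug-3 and 0.14 in wild type. AT1G31690, AT5G44020 and AT2G34930 differed by -2.86, -1.97 and -1.33 in lug-3 and by -0.42, 0.18 and 0.7 in wild type. The gap of AT2G34930 lost its call in 3 alternatives built on the GAPDH ratio (adjusted p up to 0.13).

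The clock gene GI, which links day length to flowering, had signals of 289, 304 and 262 in lug-3 flowers and 104, 132 and 112 in lug-3 leaves, against 182, 188 and 168 in wild-type flowers and 206, 123 and 219 in wild-type leaves. The mutant's flowers stood above every other array, and the difference was 1.24 in lug-3 and 0.02 in wild type (adjusted p of the gap = 0.0071). It belongs to a flowering time and clock list of 6 tested genes, of which 3 were higher and 1 lower in lug-3 flowers, beside 31.7% and 19.4% of all tested probe sets. Of the 3 rises, LD lost its call after median centring and quantile normalization (adjusted p up to 0.091) and FY after quantile normalization (adjusted p = 0.058). SNZ, a repressor of flowering of the AP2 class, was that fall, at -2.9 in lug-3 and -2.34 in wild type.

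Opposite calls in the genotypes were few, 280 probe sets. HIS1-3, a linker histone that responds to drought, had signals of 119, 164 and 127 in lug-3 flowers and 28.03, 18.6 and 22.1 in lug-3 leaves, against 51.5, 43.4 and 20.3 in wild-type flowers and 64.9, 126 and 272 in wild-type leaves. The organs did not overlap in either genotype, and the difference was 2.23 in lug-3 and -1.66 in wild type (adjusted p of the gap = 0.0011). EXPA8, an alpha-expansin, had 85.98, 76.8 and 58.4 in lug-3 flowers and 186, 193 and 205 in lug-3 leaves, against 332, 376 and 333 in wild-type flowers and 30.8, 62.3 and 132 in wild-type leaves, differences of -1.33 in lug-3 and 2.29 in wild type. BZIP61, a basic leucine zipper factor, had 1.61, 1.87 and 7.63 in lug-3 flowers and 17.99, 30.7 and 36.9 in lug-3 leaves, against 43.01, 42.8 and 30.6 in wild-type flowers and 0.580, 1.32 and 1.23 in wild-type leaves. Its differences were -1.64 in lug-3 and 2.36 in wild type, the widest gap of the 6 named (adjusted p = 4.3e-05).

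AT1G22330 differed by -1.69 in lug-3 and 1.48 in wild type, and AT5G11420 by -1.37 and 1.14 in the same order. AT5G64120, the peroxidase PRX71, differed by -1.12 in lug-3 and 1.41 in wild type, and its gap lost the call with the GAPDH covariate (adjusted p = 0.058). Its fall in lug-3 lost the call in 4 alternatives (adjusted p up to 0.13), so the opposite call does not hold in those. LTI30, a dehydrin of cold and drought, was also opposite, with 626, 634 and 267 in lug-3 flowers and 183, 196 and 219 in lug-3 leaves, against 93.2, 94.98 and 76.1 in wild-type flowers and 269, 90.04 and 221 in wild-type leaves. Its differences were 1.22 in lug-3 (adjusted p = 0.017) and -0.94 in wild type (adjusted p = 0.047), and the call in lug-3 was lost without lug-3 flowers 1 or 2 (adjusted p up to 0.068).

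**Figure D5:**
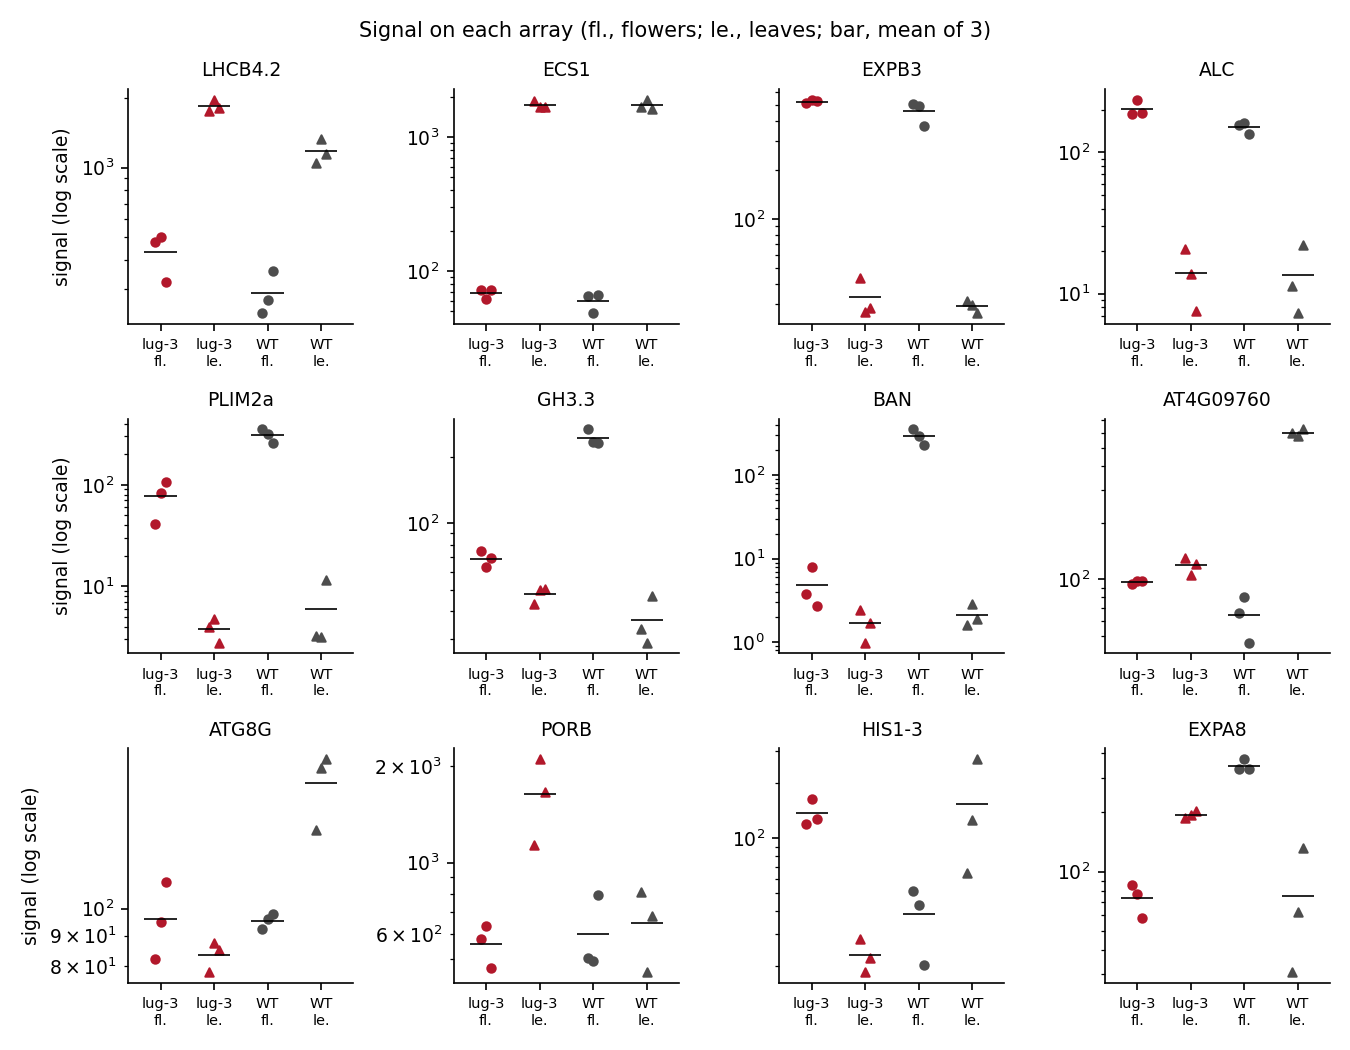
Signals of 12 genes on a log axis are shown for each of the 3 arrays of lug-3 flowers, lug-3 leaves, wild-type flowers and wild-type leaves, with a bar at the mean. LHCB4.2, ECS1, EXPB3 and ALC have organ differences close in size in both genotypes, whereas BAN, at 0.38 in lug-3 and 4.88 in wild type, is high in wild-type flowers alone and HIS1-3 and EXPA8 run in opposite directions.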

How the data were processed

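Members and gene lists were chosen with earlier results of these data known. Per the labels, 12 one-colour ATH1 arrays cover 4 groups of 3. The deposited values are probe set intensity on a linear scale; the submitters' processing notes name MAS5 and GCOS without versions. The 2% trimmed mean of the deposited intensity was 100 on every array, so no further scaling was applied. Controls were left out, and probe sets with a signal over 16.4, the pooled 30th percentile, on at least 3 arrays were tested. Log2(signal + 8) was fitted with 4 group means in limma 3.58.1 (R 4.3.3; lmFit, eBayes; 8 residual and 3.79 prior degrees of freedom), and p-values were adjusted by Benjamini-Hochberg over 17877 probe sets. Every adjusted p printed is from limma, n = 3 arrays a group. The fit was run on simulated data in which few probe sets changed, in lug-3 only. Of 100 true log2 differences of 1 it called 68 in lug-3 and 42 as a gap. Of 100 true differences of 2 it called 95 and 84, and 6 unchanged probe sets were called in lug-3. The real data hold many more changes, so these shares need not apply to them, but a gap not called may still exist.

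The contrasts were flowers against leaves in lug-3, the same in wild type, and their difference, called the gap. Gene names came from GEO's platform annotation, updated through a RefSeq table (TAIR10.1); probe sets with several genes or none are unnamed here, and no sequence was used. Named by rule, among probe sets of 1 gene, were the 12 largest rises and falls called in lug-3 with arrays that do not overlap. Added were genes with a called gap: the 6 largest each way called in wild type alone and in lug-3 alone, 6 opposite, 5 enlarged and 5 reduced ones. SEU and up to 4 genes of smallest p from each list completed the rule; other list genes were named after their values were seen. Of 32 lists, 25 had a tested gene, 175 loci in all. From these lists 4 matches were dropped after their values were seen, because the symbol belongs to another gene. Where a listed gene had several probe sets, the brightest on average stood for it. Alternatives changed the pseudocount, the filter, the scaling, the fit, the replicate block, the GAPDH covariate and the arrays left out.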

Additional observations from a re-analysis of the deposited data

Results flagged for a closer look

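The organ difference in lug-3 differed from that in wild type for 4110 probe sets by limma's test of the difference itself. The values below are the lug-3 organ difference minus the wild-type one, as log2(signal + 8), for the genes named by rule because that test called them. Among rises of wild-type flowers that were not called in lug-3, the value was -4.79 for AT2G38240, -4.5 for BAN and -3.5 for AT2G30810. It was -3.42 for AT2G10940, -3.33 for AT4G35725 and -3.04 for RR22. Among falls that were not called in lug-3, it was 2.95 for AT4G18250, 2.89 for AT1G67920 and 2.84 for AT4G09760. AT1G11210, AT4G23880 and AT1G01640 gave 2.83, 2.37 and 2.29.

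Rises called in lug-3 alone gave 2.69 for AT2G05540, 2.61 for AT5G53710 and 2.25 for PUB19. AT3G47680, AT1G05340 and AT4G33040 gave 2.24, 2.24 and 2.13. Falls called in lug-3 alone gave -2.63 for AT1G04040, -2.49 for AT4G16980 and -2.44 for AT1G31690. HTB11, AT5G44020 and AT2G34930 gave -2.43, -2.16 and -2.02.

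Genes called in opposite directions gave 3.89 for HIS1-3, -4.0 for BZIP61 and -3.17 for AT1G22330. EXPA8, AT5G11420 and AT5G64120 gave -3.61, -2.5 and -2.53. Differences of the same direction that were larger in lug-3 gave 3.25 for AT1G22160, 2.78 for AT5G50360, 2.4 for AT5G52390, 2.26 for AT2G16890 and, as a larger fall, -2.23 for AT5G03350. Those that were smaller in lug-3 gave -4.5 for AT1G56100, -4.32 for AT5G47350, -4.13 for AT4G15750, -4.07 for AT2G38900 and -3.14 for AT5G45950.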

How the results depend on the processing

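In every alternative run, the counts of calls in lug-3, in wild type and in the test of their gap, and the count of kept differences, stayed within 1.5 times their values. The median size shift of -0.44 moved to -0.53 with the GAPDH ratio as a covariate. It was -0.55 with wild-type leaves 1 alone for that group, and -0.58 without the 3 arrays of highest ratio, both chosen after seeing the data; a lone array was assumed to vary like the other groups. Over probe sets called in either genotype it was -0.26. Leaving out 1 array at a time gave 7911 to 9628 calls in lug-3, 9489 to 10691 in wild type, 3042 to 4473 for the gap, 5946 to 6709 kept differences and a size shift of -0.46 to -0.40. Array weights gave 5633 calls for the gap, and median centring moved their split to 1816 more positive and 2261 more negative in lug-3. With the replicate number as a block there were 9101 calls in lug-3, 4038 for the gap and 6581 kept. Deviations of same-numbered lug-3 flowers and leaves correlated at -0.05, -0.02 and -0.01, which gives no sign of pairing. Over all groups, same-numbered arrays correlated at -0.11 to 0.18 and the others at -0.24 to 0.17. Whether the numbers mark a shared batch was not settled by this. Each of 240 named, listed or RALF-like genes was run under 25 alternatives. The gap of JAG, not called at 0.08, was reversed and called with the GAPDH covariate, at -0.84 (adjusted p = 0.021), and no other of these genes reversed. Over genes and alternatives, the lug-3 difference kept its side of the threshold in 5691 cases, lost the call in 158 and gained it in 97, and the gap kept it in 5321, lost it in 186 and gained it in 198; the cause was not tested. The wild-type differences of single genes were not run. The number of arrays limits the precision, and signals below 16.4 have no reliable order.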

Other observations

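Of 14 tested genes of autophagy and senescence, 5 were higher and 3 lower in lug-3 flowers, against 2 and 7 in wild-type flowers. Of all tested probe sets 31.7% were higher and 19.4% lower in lug-3 flowers. The gap was called for 6, each more positive in lug-3, beside 11.5% of all tested. ATG8G, which encodes a protein of the autophagosome membrane, had signals of 82.3, 94.96 and 111 in lug-3 flowers and 78.1, 87.5 and 85.1 in lug-3 leaves, against 92.3, 96.1 and 98.1 in wild-type flowers and 136, 174 and 179.8 in wild-type leaves. Its difference was 0.18 in lug-3 and -0.72 in wild type (adjusted p of the gap = 0.0072). ATG8C and ATG8D, of the same family, differed by 0.18 and 0.09 in lug-3 and by -0.69 and -0.53 in wild type. Members of this family are alike in sequence, and probe sets may share their signal. Wild-type leaves also held 2 of the 3 arrays of highest GAPDH ratio, and without those 3 arrays the list had 4 called gaps. ATG8G, ATG8C and ATG8D lost their gaps in that setting (adjusted p up to 0.071, 0.069 and 0.11 over all alternatives that lost them). So did ATG8F and APG8H (adjusted p up to 0.19 and 0.12 over such alternatives). SAG101, of the same list, gained a called gap there, so the 4 were not simply what remained of the 6.

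Genes of cold and drought were higher in lug-3 flowers for 6 of 9 tested, against 4 in wild-type flowers, beside 31.7% and 33.0% of all tested. COR15A, a chloroplast protein of cold hardening, had signals of 1100, 1066 and 1077 in lug-3 flowers and 177, 426 and 425 in lug-3 leaves, differences of 1.74 in lug-3 and 2.62 in wild type. COR47, a dehydrin, differed by 1.44 in lug-3 and 0.47 in wild type, a gap that did not pass the test (adjusted p = 0.057) and did in 11 alternatives. Of 6 tested WRKY factors, which act in defence and senescence, 1 was lower in lug-3 flowers and 3 in wild-type flowers, beside 19.4% and 26.2% of all tested. That 1, WRKY47, differed by -1.23 in lug-3 and -2.22 in wild type (adjusted p of the gap = 0.0016). Both tested genes of systemic defence were lower in the flowers of each genotype, beside the same shares of all tested, 19.4% in lug-3 and 26.2% in wild type. GRX480, a glutaredoxin of salicylic acid signalling, differed by -2.15 in lug-3 and -1.76 in wild type, and SAG101 by -0.76 and -1.71, a call in lug-3 that 12 alternatives lost.

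Of 3 tested polarity genes, YAB5, a YABBY factor of the lower leaf face, had 34.5, 24.98 and 40.6 in lug-3 flowers and 67.1, 83.2 and 69.7 in lug-3 leaves. Its difference was -0.99 in lug-3 and -0.09 in wild type (adjusted p of the gap = 0.022, lost without lug-3 flowers 2 or lug-3 leaves 2). PHV, a factor of the upper leaf face, was higher in flowers by 1.46 in lug-3 and 0.79 in wild type. Of 3 tested pectin-modifying genes 2 were lower in lug-3 flowers, beside 19.4% of all tested. Among them was PME61, a pectin methylesterase, at -0.72 in lug-3 and 0.1 in wild type (adjusted p of the gap = 0.0071).

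Families joined by a shared symbol stem were looked at after their values were known. Of 10 tested RALF-like signalling peptides, 6 were higher and 1 lower in lug-3 flowers, beside 31.7% and 19.4% of all tested. In wild-type flowers 9 were higher and 1 lower, beside 33.0% and 26.2%. The medians were 1.05 in lug-3 and 2.27 in wild type. The gap was called for 6, each more negative in lug-3, beside 11.5% of all tested. Over the alternatives the called gaps numbered 3 to 9, and the rises in lug-3 numbered 5 to 7. Once the GAPDH ratio entered the model, 3 gaps were called, and RALFL18, RALFL22 and RALFL28 had lost theirs. RALFL25 had mean signals of 46.5 in lug-3 flowers and 1.47 in lug-3 leaves, against 233 in wild-type flowers and 0.587 in wild-type leaves.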
